A study of Bos taurus with 138 samples.

Results

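The genes described here are the aminoacyl-tRNA synthetases of the cow, taken as every row of the table whose symbol is 1 letter followed by ARS and an optional number, together with EPRS1, FARSA and FARSB. This gave 38 of the 16706 genes, and all 38 were measured well enough to enter the tests. Of these, 17 end in the number 2 and encode the mitochondrial enzymes, and the other 21 are called cytosolic here, although GARS1 and KARS1 supply the enzyme of both compartments. An aminoacyl-tRNA synthetase joins an amino acid to the tRNA that carries its codon's complement, so each enzyme stands at the start of protein synthesis. The cytosolic set serves ribosomes in the cytoplasm, and the mitochondrial set, also encoded in the nucleus, serves the ribosomes that translate the respiratory chain subunits of mitochondrial DNA. In animal cells 8 cytosolic members, among them EPRS1, IARS1, LARS1, MARS1, QARS1 and RARS1, assemble into the multi-synthetase complex, and phenylalanyl-tRNA synthetase is built from an alpha subunit, FARSA, and a beta subunit, FARSB. The oocyte carries stored mRNA that it translates until the embryo starts its own transcription, in cattle mainly at the 8-cell stage.

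RNA was sequenced from Bos taurus oocytes arrested with an intact germinal vesicle (GV), from mature oocytes at the second metaphase (MII), and from 2-cell, 8-cell, morula and blastocyst embryos. The labels name no genetic change or treatment, and per the methods cycloheximide, which holds ribosomes on mRNA, was given in culture shortly before collection and was kept in the lysates and gradients. At each of the 6 stages the cleared lysates of pooled oocytes or embryos were spread over sucrose gradients A and B, each collected as 10 fractions. The study's methods class F1 and F2 as free RNA, F3 to F5 as bound to monosomes, F6 and F7 as intermediate and F8 to F10 as polysomes. In addition, 3 transcriptomes A, B and C came from whole, smaller pools of the same batches. Oocytes came from slaughterhouse ovaries and were matured in vitro after the GV stage, and embryos were made by in vitro fertilization, so the blastocysts hold trophectoderm and inner cell mass together. Fewer cells of a type and less RNA per cell cannot be told apart in such pools.

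The unit used below is the count per 1e6 counts (CPM) after scaling by the trimmed mean of M-values (TMM), for transcriptomes and for polysome pools, the sum of F8, F9 and F10 of a gradient. A level is thus a share of the sequenced RNA. Where a gene is said to rise or fall between stages, its share changed, and its amount per oocyte or embryo is not known. The fraction libraries held 1229382 to 17342859 counts, the transcriptomes 3269386 to 11812567 and the pools 22543733 to 39380640. Summed levels of 8 oocyte markers were 20191 to 25574 CPM in the oocyte transcriptomes and 25.1 to 758 CPM in those of morulae and blastocysts. The 8 measured blastocyst markers went from 60.1 to 72.0 CPM in GV transcriptomes to 5239 to 6066 CPM in blastocyst transcriptomes. The 11 cumulus cell markers summed to 250 to 1222 CPM in 8-cell transcriptomes and to 13.0 to 589 CPM in the others. From GV to blastocyst, 5, 7, 5, 9, 5 and 6 of the 11 had a mean above 1 CPM in the transcriptomes. In the pools their sums lay between 6.12 CPM in a morula pool and 151 CPM in an MII pool. The part of cumulus cells in any of these values was not tested. The fraction libraries detected 4951 to 14093 of the genes, and 5 of the 120 detected fewer than 7500. These were F1 of blastocyst gradient B, F5 and F9 of morula gradient A, F7 of 8-cell gradient A and F10 of MII gradient B, where the mitochondrial synthetases summed to 51.3 CPM beside 552 CPM in F10 of gradient A. Replicates agreed less at some stages than at others, and the median distance between pools A and B over the 38 genes was 0.33 on the log2(CPM + 1) scale at GV, 1.01 at the 8-cell stage and 0.97 in morulae. In the 8-cell pools 11 of the 38 genes differed by more than 2 on that scale, compared with 1 in GV oocytes and 0 in 2-cell embryos.

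In the transcriptomes the mean level of both sets was lowest in MII oocytes and was higher in blastocysts. On the log2(CPM + 1) scale, the mean of the 21 cytosolic genes lay between 5.03 and 5.28 in the 3 MII transcriptomes and between 6.45 and 6.66 in the 3 blastocyst transcriptomes. The mean of the 17 mitochondrial genes lay between 2.88 and 2.92 in MII transcriptomes and between 3.71 and 4.10 in blastocyst transcriptomes. In both sets the replicates of these stages did not overlap. The gap between the sets, cytosolic minus mitochondrial, averaged 2.12 ± 0.04, 2.24 ± 0.13, 2.43 ± 0.10, 2.87 ± 0.16, 2.83 ± 0.09 and 2.62 ± 0.27 from GV to blastocyst (SD, n = 3 transcriptomes). In the pools it averaged 1.58 ± 0.09, 1.31 ± 0.37, 0.94 ± 0.37, 1.81 ± 0.35, 2.39 ± 0.0042 and 2.26 ± 0.32 (SD, n = 2), lowest at 2-cell and highest in morulae. No test was made of these means, and because genes differ in length only their change over stages can be read, not the gap itself.

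**Figure D1:**
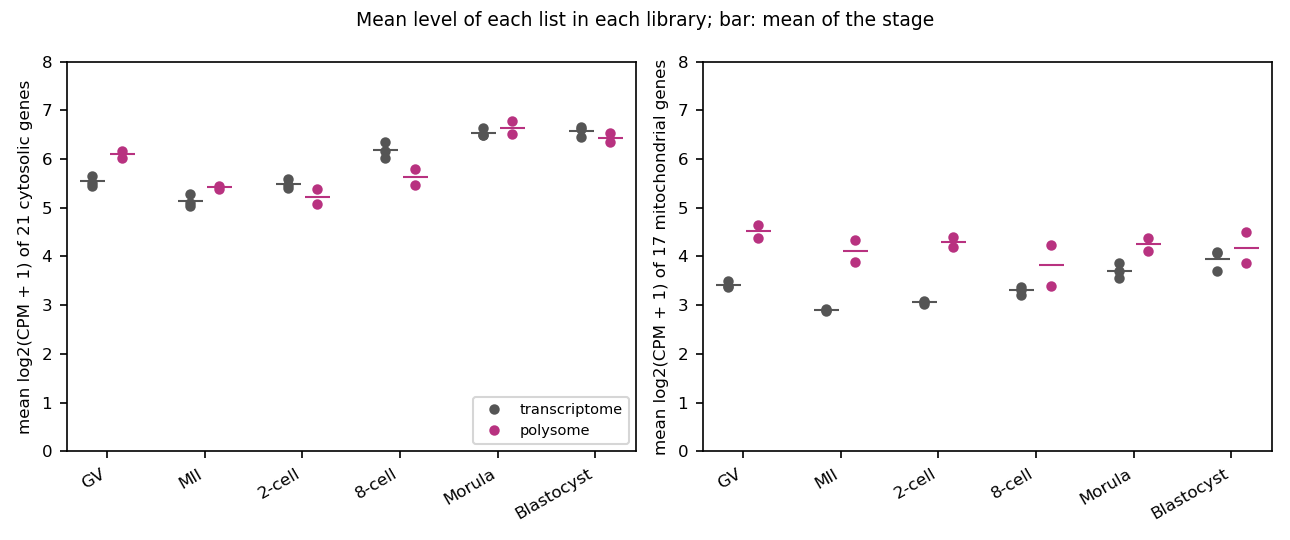
Mean log2(CPM + 1) of the 21 cytosolic genes (left) and the 17 mitochondrial genes (right) in each library, by stage, with grey points for the 3 transcriptomes and magenta points for the 2 polysome pools and a bar at the mean of each. The mitochondrial mean of the pools lies above that of the transcriptomes at every stage, with overlapping points only in blastocysts, while the cytosolic mean lies on either side depending on the stage.

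The summed CPM of the mitochondrial set, not corrected for length, was carried by few genes. RARS2, the mitochondrial arginine enzyme, made up 70.0%, 85.4% and 75.9% of the mitochondrial sum in the transcriptomes of GV oocytes, MII oocytes and 2-cell embryos and 25.9% in those of 8-cell embryos. The mitochondrial sum was 1152 ± 303 CPM in MII transcriptomes and 273 ± 32.9 CPM in 8-cell transcriptomes (SD, n = 3), whereas the cytosolic sum stayed between a mean of 2447 CPM at 2-cell and 3253 CPM in morulae. In the GV pools another gene led, and CARS2, the mitochondrial cysteine enzyme, held 62.7% of the mitochondrial sum.

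The first comparison asked how levels of synthetase mRNA changed across the activation of the embryonic genome. It set the mean of 8-cell, morula and blastocyst transcriptomes against that of GV, MII and 2-cell transcriptomes. Of the cytosolic genes 12 of 21 rose and 2 fell, and of the mitochondrial genes 8 of 17 rose and 3 fell, past an adjusted p of 0.05 and a 2-fold change in edgeR. The background was high, since 61.9% of the 14612 genes tested were called, 32.0% higher and 30% lower. The median log2 fold change was 1.11 for the cytosolic and 1.05 for the mitochondrial genes, against 0.15 over all genes.

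QARS1, the glutamine enzyme of the multi-synthetase complex, had the largest rise. Its 3 transcriptomes read 9.26, 5.74 and 9.33 CPM at GV, 1.83, 4.36 and 3.09 CPM at MII, 2.59, 2.00 and 3.08 CPM at 2-cell, 54.8, 54.5 and 70.7 CPM at 8-cell, 96.4, 81.0 and 70.7 CPM in morulae and 133, 137 and 129 CPM in blastocysts. All 9 libraries after activation were above all 9 before it, and the log2 fold change was 4.44 ± 0.22 (SE, adjusted p = 1.7e-14). AARS1, the alanine enzyme, rose by 3.96 ± 0.41 (adjusted p = 7.6e-09), from 1.55 to 8.43 CPM over the 9 earlier libraries to 18.6 to 227 CPM over the 9 later ones. YARS1, the tyrosine enzyme, stood at 2.74 to 7.67 CPM through the 2-cell stage and at 55.4 to 93.2 CPM from the 8-cell stage on, with a log2 fold change of 3.89 ± 0.54 (adjusted p = 7.3e-07). YARS1 had reached this level at the 8-cell stage, where its libraries read 90.1, 79.7 and 93.2 CPM. The 2 cytosolic genes that fell were RARS1, the arginine enzyme, at -1.53 ± 0.19 (adjusted p = 1.7e-07), and TARS3, a second threonine enzyme, at -2.06 ± 0.75 (adjusted p = 0.017). RARS1 kept 461 to 583 CPM in 8-cell and morula transcriptomes and dropped to 73.8 to 110 CPM only in blastocysts, so its later and earlier libraries overlapped.

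Among the mitochondrial genes VARS2, AARS2 and TARS2, the valine, alanine and threonine enzymes, had the largest rises. VARS2 read 0 to 1.23 CPM before activation and 2.00 to 12.4 CPM after it, with a log2 fold change of 3.46 ± 0.37 (adjusted p = 1.0e-08). For AARS2 the corresponding ranges were 0 to 0.923 and 1.83 to 12.9 CPM, and the log2 fold change was 3.44 ± 0.43 (adjusted p = 1.2e-07). TARS2 rose by 2.48 ± 0.63 (adjusted p = 0.0012). The 3 genes that fell were EARS2, RARS2 and WARS2, the glutamate, arginine and tryptophan enzymes. RARS2 read 398, 598 and 464 CPM at GV, 786, 839 and 1327 CPM at MII and 506, 499 and 386 CPM at 2-cell, then 74.7, 72.6 and 64.6 CPM at 8-cell, 68.1, 60.6 and 94.7 CPM in morulae and 30.9, 31.7 and 29.4 CPM in blastocysts. Its lowest early library was above its highest late library, and the log2 fold change was -3.48 ± 0.25 (adjusted p = 9.1e-12). EARS2 fell by 3.63 ± 0.61 on the log2 scale (adjusted p = 1.2e-05), from 6.30 to 14.4 CPM to at most 1.22 CPM. Both arginine enzymes thus belonged to the few members that fell.

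Between consecutive stages the transcriptomes changed unevenly. From GV to MII 2 cytosolic genes rose, TARS1 among them, and 6 fell, and 0 mitochondrial genes rose and 5 fell, where 17.1% of all genes were called, 6.61% higher and 10.5% lower (4 higher and 11 lower of the 38 with DESeq2). The largest falls were those of CARS2 at -3.43 ± 0.40 (adjusted p = 8.8e-07) and FARSA at -3.26 ± 0.37 (adjusted p = 5.6e-07). FARSA read 27.1, 16.3 and 22.6 CPM at GV and 1.26, 3.45 and 2.14 CPM at MII. From MII to 2-cell 3 cytosolic and 3 mitochondrial genes rose and FARSB alone fell, at a background of 12%, 6% higher and 5.96% lower (6 higher and 3 lower with RLE scaling and 7 and 4 with DESeq2). FARSA, CARS2 and VARS2 rose again in this step, by 2.73 ± 0.37, 2.06 ± 0.39 and 2.40 ± 0.74, but both steps share the MII libraries, so a low reading there enters both. From 2-cell to 8-cell 6 cytosolic genes rose and 0 fell, and 4 mitochondrial genes rose and 3 fell, at a background of 50.1%, 26.6% higher and 23.5% lower. From 8-cell to morula VARS1 (1.36 ± 0.33) and CARS2 (1.99 ± 0.38) rose and none fell, at a background of 14.4%, 6.60% higher and 7.75% lower. From morula to blastocyst 4 cytosolic genes rose and 6 fell, and 3 mitochondrial genes rose and 2 fell, at a background of 21.6%, 10.2% higher and 11.4% lower, with RARS1 at -2.50 ± 0.35 and FARSB at -2.42 ± 0.32 the largest falls. In that step GARS1, the glycine enzyme of both compartments, rose by 1.94 ± 0.36, from 51.0 to 57.0 CPM in morulae to 175 to 236 CPM in blastocysts. Where an edgeR count in these steps was 0, at most 2 members of that set had an unadjusted p under 0.05 in that direction and DESeq2 called at most 2.

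The next comparison set the polysomes of a stage against its transcriptome, to ask which synthetase mRNAs were over- or under-represented on them. In GV oocytes 6 cytosolic genes were higher in the pools and 5 lower, and 7 mitochondrial genes were higher and 2 lower. Of all genes 38.6% were called there, 21.6% higher and 17% lower. In MII oocytes the counts were 8 higher and 8 lower of the cytosolic and 7 higher and 3 lower of the mitochondrial genes, at 56.6%, 30.4% higher and 26.2% lower. In 2-cell embryos they were 6 and 8 of the cytosolic and 8 and 2 of the mitochondrial genes, at 49.8%, 28.5% higher and 21.3% lower. The 8-cell counts were 5 and 7 and then 6 and 4, at 57.7%, 27.4% higher and 30.3% lower. Morulae gave 9 and 6 and then 5 and 2, at 50.4%, 25.9% higher and 24.5% lower. Blastocysts gave 5 and 6 and then 3 and 1, at 38.9%, 19.4% higher and 19.5% lower. The share of the 38 members called was thus 52.6%, 68.4%, 63.2%, 57.9%, 57.9% and 39.5% from GV to blastocyst, which at the 8-cell and blastocyst stages was within 1 percentage point of the background. The median log2 fold change of the mitochondrial genes was 1.24, 1.69, 1.34, 1.04, 1.2 and 0.58 from GV to blastocyst. That of the cytosolic genes was 0.49, 0.09, -0.52, 0.08, -0.17 and -0.48, and over all genes it lay between -0.26 and 0.18. The cytosolic medians at MII and 8-cell changed sign with RLE or DESeq2 scaling, to -0.11 and -0.17. No test compared the sets.

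**Figure D2:**
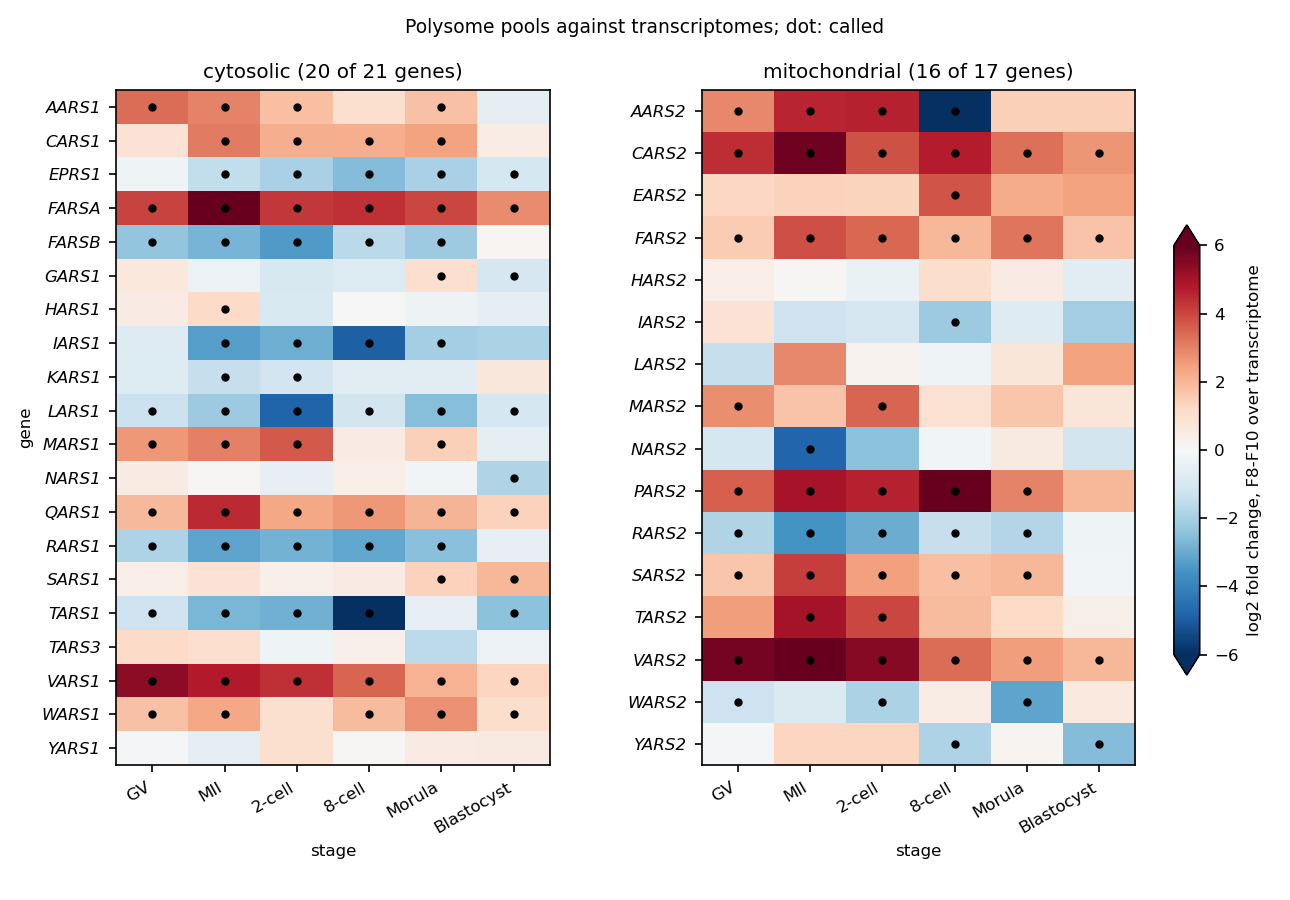
Log2 fold change of polysome pools (F8 to F10) over transcriptomes for 36 of the 38 genes (rows) at each stage (columns), cytosolic on the left and mitochondrial on the right, red higher and blue lower in the pools, with the colour scale ending at 6 in each direction and a dot where the change was called. FARSA, QARS1, VARS1, CARS2, FARS2 and VARS2 are red with a dot in every column and LARS1 is blue with a dot in every column.

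The same call was made at each stage for FARSA, QARS1 and VARS1 among the cytosolic and CARS2, FARS2 and VARS2 among the mitochondrial genes, all higher in the pools at all 6 stages. WARS1, PARS2 and SARS2 were higher at 5. LARS1 was among those lower at all 6, and EPRS1, FARSB, RARS1, TARS1 and RARS2 at 5. At single stages 38.6% to 57.7% of all genes were called, and the share of all genes called alike at 5 or 6 stages is not given here. GARS1 and AARS2 were called in both directions at different stages, and TARS3, YARS1, HARS2 and LARS2 were called at none.

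The subunits of phenylalanyl-tRNA synthetase stood on opposite sides. FARSA read 320 and 404 CPM in the GV pools beside 27.1, 16.3 and 22.6 CPM in the transcriptomes, a log2 fold change of 4.04 ± 0.38 (adjusted p = 1.2e-08). FARSB read 67.0 and 128 CPM in the same pools beside 402, 587 and 497 CPM, a log2 fold change of -2.35 ± 0.37 (adjusted p = 1.8e-05). The enzyme holds both subunits in equal number. In MII oocytes FARSA was at 6.14 ± 0.42 (adjusted p = 2.1e-11) and FARSB at -2.79 ± 0.38 (adjusted p = 1.1e-06). In 2-cell embryos FARSA read 238 and 336 CPM in the pools and 15.9, 12.2 and 17.7 CPM in the transcriptomes, while FARSB read 8.26 and 19.97 CPM and 137.9, 191 and 113 CPM. In blastocysts FARSA was still higher in the pools, at 2.84 ± 0.36 (adjusted p = 1.4e-06), and FARSB was not called, with 87.1 and 55.2 CPM in the pools and 62.6, 56.6 and 76.8 CPM in the transcriptomes.

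Members of the multi-synthetase complex also stood on both sides. At MII and at 2-cell 6 of its 8 members were lower in the pools, where 26.2% and 21.3% of all genes were lower, and 2, QARS1 and MARS1, were higher. At the other stages 2 were higher and 3 lower (GV), 1 and 5 (8-cell), 2 and 5 (morula) and 1 and 3 (blastocyst), where 17%, 30.3%, 24.5% and 19.5% of all genes were lower. The median log2 fold change of the 8 was -0.81, -1.84, -2.32, -1.84, -1.997 and -0.80 from GV to blastocyst, below the cytosolic medians given above. QARS1 at MII read 92.2 and 47.8 CPM in the pools beside 1.83, 4.36 and 3.09 CPM in the transcriptomes, at 4.49 ± 0.40 (adjusted p = 1.4e-09). MARS1, the methionine enzyme, read 199 and 186 CPM in the 2-cell pools beside 13.6, 13.7 and 17.1 CPM, at 3.70 ± 0.36 (adjusted p = 1.1e-08). On the other side LARS1, the leucine enzyme, read 4.25 and 4.12 CPM in the 2-cell pools beside 127, 134 and 91.3 CPM, at -4.81 ± 0.35 (adjusted p = 2.1e-10). IARS1 and RARS1, for isoleucine and arginine, were among the lowest at MII, at -3.30 ± 0.88 (adjusted p = 0.0028) and -3.15 ± 0.42 (adjusted p = 7.6e-07). Of the 13 free-standing cytosolic genes, VARS1, the valine enzyme, was the most raised at GV, with 386 and 466 CPM in the pools beside 12.1, 10.97 and 8.21 CPM, at 5.35 ± 0.40 (adjusted p = 5.8e-10).

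**Figure D3:**
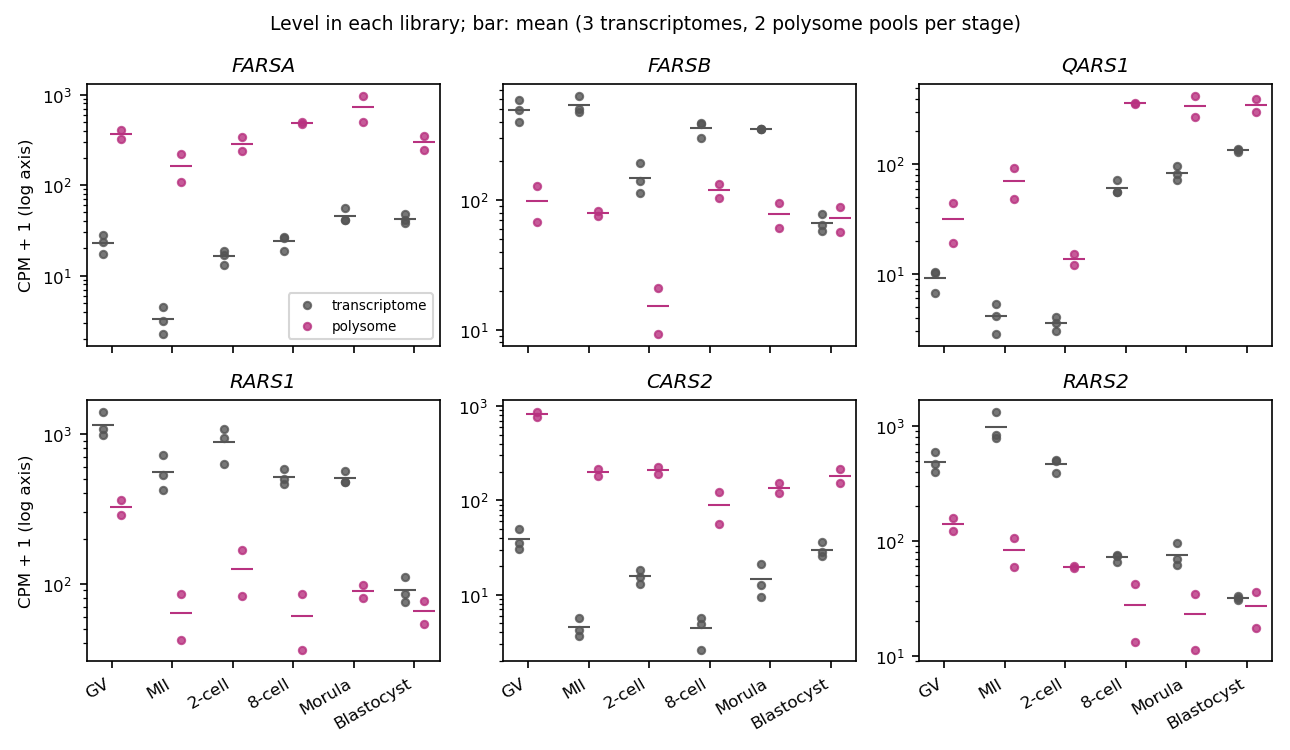
CPM + 1 on a log axis for FARSA, FARSB, QARS1, RARS1, CARS2 and RARS2 in each transcriptome (grey) and polysome pool (magenta), by stage, with a bar at each mean. FARSA, QARS1 and CARS2 lie higher in the pools than in the transcriptomes at every stage, and FARSB, RARS1 and RARS2 lie lower at all stages before the blastocyst, where the points meet.

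Of the mitochondrial genes VARS2 and CARS2 had the largest log2 fold changes at GV and MII. CARS2 read 767 and 865 CPM in the GV pools beside 49.2, 34.7 and 29.6 CPM in the transcriptomes, at 4.43 ± 0.42 (adjusted p = 1.6e-08). It read 216 and 179 CPM beside 4.69, 2.64 and 3.21 CPM at MII, at 5.81 ± 0.45 (adjusted p = 1.6e-10). VARS2 read 52.0 and 51.9 CPM in the GV pools beside 0.835, 1.23 and 0.811 CPM, at 5.75 ± 0.67 (adjusted p = 2.7e-07). Its transcriptomes at MII held 0, 0.304 and 0.119 CPM. At 2-cell PARS2, the mitochondrial proline enzyme, came next after VARS2, with 46.4 and 48.0 CPM in the pools beside 1.60, 1.92 and 2.18 CPM, at 4.63 ± 1.11 (adjusted p = 0.0012). FARS2, the mitochondrial phenylalanine enzyme, which works as a single chain, was higher in the pools at all 6 stages, with a log2 fold change between 1.54 ± 0.31 (GV) and 3.88 ± 0.33 (MII). RARS2, the gene that led the mitochondrial sum in the transcriptomes, was lower in the pools at GV, with 156 and 121 CPM beside 398, 598 and 464 CPM, at -1.82 ± 0.47 (adjusted p = 0.0031), and at MII, at -3.59 ± 0.51 (adjusted p = 2.2e-06). WARS2 was lower at GV (-1.26 ± 0.37), 2-cell (-1.91 ± 0.38) and morula (-3.16 ± 0.41).

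These differences were mostly not particular to the polysome fractions. Of the 75 calls of a synthetase higher in the pools, over all 6 stages, 50 also lay above all 3 transcriptomes in both gradients in each of the 4 zones of the gradient, the free RNA of F1 and F2 included. Of the 54 lower calls 47 lay below in all 4 zones. Over all genes called, the shares were 61.3% of the 22374 higher and 75.5% of the 20293 lower calls. FARSA at GV lay above its transcriptomes in all 20 fraction libraries, at 154 to 1449 CPM beside 17.7 to 30.6 CPM on the scale of the fractions. FARSB lay below in all 20, at 7.71 to 164 CPM beside 454 to 637 CPM. EPRS1, the fused glutamate and proline enzyme, lay below its transcriptomes in all 20 fraction libraries at each of the 6 stages. By stage, the higher calls seen in all 4 zones were 12 of 13 at GV, 13 of 15 at MII and 14 of 14 at 2-cell, and then 5 of 11 at 8-cell, 3 of 14 in morulae and 3 of 8 in blastocysts. Over all genes called higher this share was lower at the later stages too, at 87.3%, 82.2%, 72.3%, 52%, 36.5% and 29.4% from GV to blastocyst. Gradient and transcriptome libraries came from separate pools and only the former passed through clearing and fractionation, so the kind of library and binding to polysomes cannot be told apart in this comparison.

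The change of level along the gradient was therefore described from the fractions alone. The measure was Spearman's rho between the level and the fraction number over the 16 libraries F3 to F10 of both gradients. Each fraction was sequenced and scaled as its own library, so a level is a share of that fraction's RNA. A trend describes how this share changed, not where most molecules of a gene lay. Its permutations treated the 16 libraries as exchangeable, although they are neighbouring fractions of only 2 gradients. The p-values of trends therefore do not measure the spread between gradients. In GV oocytes 6 cytosolic genes rose towards the polysomes and 5 fell, and 1 mitochondrial gene rose and 3 fell. Of 11595 genes 36.7% had a trend, 17% rising and 19.8% falling. FARSB (rho = 0.89, adjusted p = 0.00035), EPRS1 (0.88, adjusted p = 0.00044) and LARS1 (0.76, adjusted p = 0.0061) rose, by permutation tests. CARS1 (-0.94, adjusted p = 0.00024), QARS1 (-0.94, adjusted p = 0.00024) and VARS1 (-0.78, adjusted p = 0.0037) fell. FARSB read 10.0, 7.71 and 10.99 CPM in F3 to F5 of gradient A and 70.6, 62.5 and 62.2 CPM in F8 to F10. FARSA, with rho = -0.73 (adjusted p = 0.0094), went the other way. Thus FARSB, EPRS1 (not called against the transcriptome at GV), LARS1 and TARS1 rose towards the bottom of the gradient while below the transcriptome. FARSA, QARS1, VARS1 and WARS1 fell towards the bottom while above it. TARS2 (rho = -0.96, adjusted p = 0.00024), SARS2 (-0.91) and LARS2 (-0.85) were the falling mitochondrial genes and IARS2 (0.77, adjusted p = 0.0049) the rising one.

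**Figure D4:**
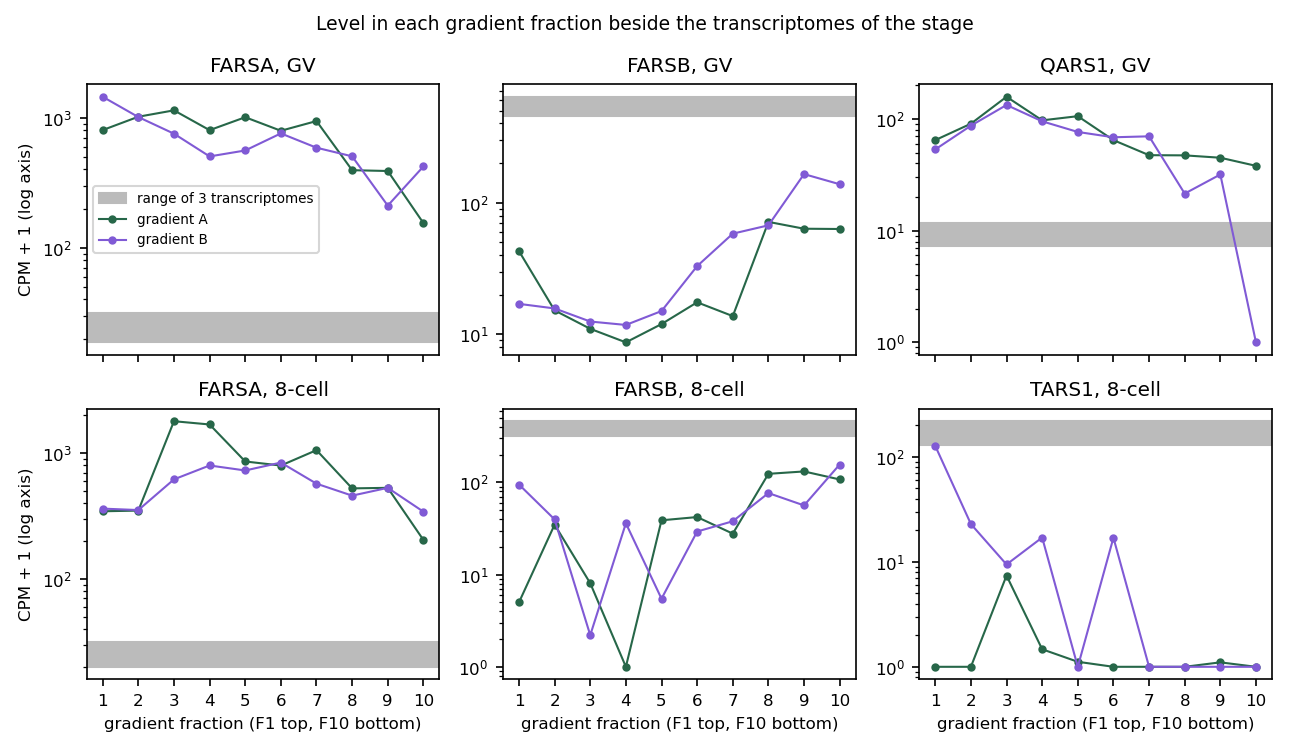
CPM + 1 on a log axis in fractions F1 to F10 of gradients A (green) and B (violet), with a grey band for the range of the 3 transcriptomes of the same stage, for FARSA, FARSB and QARS1 in GV oocytes and for FARSA, FARSB and TARS1 in 8-cell embryos. FARSA lies above and FARSB below the band throughout, with opposite slopes, and TARS1 is at 0 or close to it in F7 to F10.

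At later stages fewer trends were found. In MII oocytes 1 cytosolic gene rose and 8 fell, and 0 mitochondrial genes rose and 1 fell (WARS2, -0.91, adjusted p = 0.00082), at a background of 19.3%, 6.85% rising and 12.5% falling. The steepest were GARS1 at -0.91 (adjusted p = 0.00082), WARS1 at -0.88 (adjusted p = 0.0014) and KARS1 at -0.83 (adjusted p = 0.0037). In 2-cell embryos 0 cytosolic genes rose and 5 fell, while CARS2 (0.83, adjusted p = 0.0050) and FARS2 (0.81, adjusted p = 0.0055) of the mitochondrial genes rose and WARS2 (-0.88, adjusted p = 0.0036) fell, at 20.4%, 9.66% rising and 10.8% falling. WARS1, the tryptophan enzyme, fell at each of the first 4 stages (-0.78, -0.88, -0.78 and -0.69), and its fractions F3 to F5 at MII read 1423, 1155 and 1286 CPM in gradient A against 400, 263 and 349 CPM in F8 to F10. Without F10 of gradient B the MII count of 10 trends was also 10, 1 rising and 9 falling. At the 8-cell stage FARSB (0.86, adjusted p = 0.0030), LARS1 and NARS1 (0.76 each) and QARS1 (0.71) rose, and FARSA (-0.79, adjusted p = 0.0095), WARS1, TARS1 and VARS1 fell. There were 0 mitochondrial calls in either direction (1 rising at an unadjusted p under 0.05), at 16.6%, 5.84% rising and 10.8% falling. QARS1 thus changed from falling at GV to rising at the 8-cell stage, a difference that was not tested. In morulae 0 of the 37 synthetases tested had a trend, at a background of 1.60%, 0.817% rising and 0.782% falling. At an unadjusted p under 0.05, 4 cytosolic and 2 mitochondrial genes rose there and 1 cytosolic gene fell. In blastocysts AARS1 (0.79), SARS1 (0.78) and LARS2 (0.77) rose, at 7.56%, 5.63% rising and 1.93% falling. With 1 gradient alone, which leaves 8 libraries, the count fell from 15 to 7 (without gradient A) and 9 (without gradient B) at GV, from 10 to 0 and 3 at MII, from 8 to 5 and 0 at 2-cell, and from 8 and 3 to 0 at the 8-cell and blastocyst stages with either.

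TARS1 and AARS2 were close to absent from the 8-cell polysomes. TARS1, the main threonine enzyme of the cytoplasm, had 1 count in pool A and 0 in pool B, beside a mean of 144 CPM in the transcriptomes, a ratio of 8853 with a 95% exact Poisson interval of 1589 to 349671 for counting error only. In its fractions gradient B held 126 CPM in F1 and 21.9 CPM in F2 and 0 CPM from F7 to F10, and gradient A held at most 6.39 CPM in any fraction. AARS2 had 0 and 1 counts beside 2.48 CPM, a ratio of 152 (interval 27.3 to 6010). In gradient B AARS2 read 100 and 129 CPM in F6 and F7, next to the pooled fractions. Other members were at 0 in 1 of the 8-cell pools only, so that the pools disagreed. F8, F9 and F10 of 8-cell gradient A detected 7810, 8022 and 7669 genes, beside a median of 11196.5 over the fraction libraries. They passed the limit of 7500 genes, so leaving out fractions of few genes kept them. Pool A also held the fewest counts of all pools, 22543733. The part of this in the zeros of pool A was not tested. For TARS2 pool A held 0 counts and pool B 5277 counts, for NARS2 716 and 0, and IARS1, TARS3, LARS2 and MARS2 also had 0 counts in pool A and 271 to 542 in pool B. AARS1 read 94.1 and 3.14 CPM and CARS1 4.84 and 107 CPM in these pools. The CARS1 call at the 8-cell stage reversed without pool B, to -1.35, and that of GARS1 in morulae reversed without pool A, to -0.12, and to -0.028 without the fractions of few genes.

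Between consecutive stages the pools changed most at the step from 2-cell to 8-cell, with the share of members called, 47.4%, near the background. From GV to MII 0 cytosolic genes rose and 3 fell and CARS2 fell, at a background of 5.37%, 3.03% higher and 2.33% lower (2 higher and 6 lower of the 38 with DESeq2). From MII to 2-cell LARS1 (-2.61 ± 0.32), FARSB (-2.47 ± 0.39), QARS1 (-2.47 ± 0.42) and WARS2 (-1.97 ± 0.41) fell and none rose, at 8.51%, 3.37% higher and 5.14% lower (1 higher and 5 lower with DESeq2 and 1 and 4 with fractions scaled to the same total). From 2-cell to 8-cell 8 cytosolic genes rose and 4 fell and 3 mitochondrial genes rose and 3 fell, at 46.3%, 21% higher and 25.2% lower. QARS1 went from 11.1 and 14.2 CPM to 356 and 363 CPM, at 4.83 ± 0.47 (adjusted p = 3.5e-08). LARS1 went from 4.25 and 4.12 CPM to 70.9 and 44.9 CPM, at 3.79 ± 0.34 (adjusted p = 1.2e-08), and FARSB went from 8.26 and 19.97 CPM to 133 and 102 CPM, at 3.06 ± 0.40 (adjusted p = 1.8e-06). HARS2, the mitochondrial histidine enzyme, had the largest mitochondrial rise, from 2.75 and 4.86 CPM to 60.6 and 46.1 CPM, at 3.81 ± 0.57 (adjusted p = 1.1e-05). From 8-cell to morula 6 cytosolic genes rose and 1 fell and 3 mitochondrial genes rose and 1 fell, at 36.2%, 18.5% higher and 17.7% lower, but TARS1 and AARS2 rose from the near absence given above and TARS3 fell from a pool at 0 and a pool at 9.76 CPM. WARS2 fell in this step from 68.8 and 37.4 CPM to 2.65 and 3.91 CPM, at -4.01 ± 0.44 (adjusted p = 8.3e-07), and rose again in blastocysts by 2.27 ± 0.41 to 17.1 and 14.7 CPM. Morula to blastocyst gave 0 rises and 2 falls among the cytosolic and 1 rise and 1 fall among the mitochondrial genes, at 13.9%, 5.79% higher and 8.13% lower (1 and 1 of the 38 with RLE scaling, and also without the fractions of few genes). Single pools weighed on these counts. The 2-cell to 8-cell count of 18 was 14 without 2-cell pool A and 27 without 8-cell pool B. The GV to MII count of 4 was 2 without GV pool A, GV pool B or MII pool A. The 8-cell to morula count of 11 was 17 without 8-cell pool B, where TARS3 turned to 5.14, and the morula to blastocyst count of 4 was 1 without blastocyst pool B. Where an edgeR count was 0, at most 4 members of that set had an unadjusted p under 0.05 in that direction and DESeq2 called at most 1.

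Across genome activation as a whole the pools held 8 cytosolic genes that rose and 4 that fell, and 4 mitochondrial genes that rose and 5 that fell, at a background of 60.4%, 25.2% higher and 35.2% lower. The medians were 0.86 for the cytosolic and -0.36 for the mitochondrial genes, against -0.29 over all genes. YARS1 (4.12 ± 0.66, adjusted p = 6.6e-06), QARS1 (3.54 ± 0.25, adjusted p = 1.7e-11) and SARS1 (3.03 ± 0.22, adjusted p = 2.6e-11), the serine enzyme, rose most among the cytosolic genes, as they did, with AARS1, in the transcriptomes. SARS1 read 12.9 to 38.9 CPM in the 6 earlier pools and 104 to 424 CPM in the 6 later ones. NARS2 (4.31 ± 0.92, adjusted p = 0.00023) and HARS2 (2.43 ± 0.31, adjusted p = 2.4e-07) rose and EARS2 (-2.14 ± 0.66, adjusted p = 0.0065) and RARS2 (-1.82 ± 0.28, adjusted p = 4.9e-06) fell. For NARS2 the 8-cell pools held 716 and 0 counts. When the 8-cell stage was left out of the later group, the mitochondrial median was 0.16, and the falls of TARS1 and AARS2 turned into rises of 1.40 (adjusted p = 9.6e-05) and 1.36 (adjusted p = 0.017). The rise of LARS2, 2.25 ± 0.83, turned to -0.85 without 8-cell pool B.

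**Figure D5:**
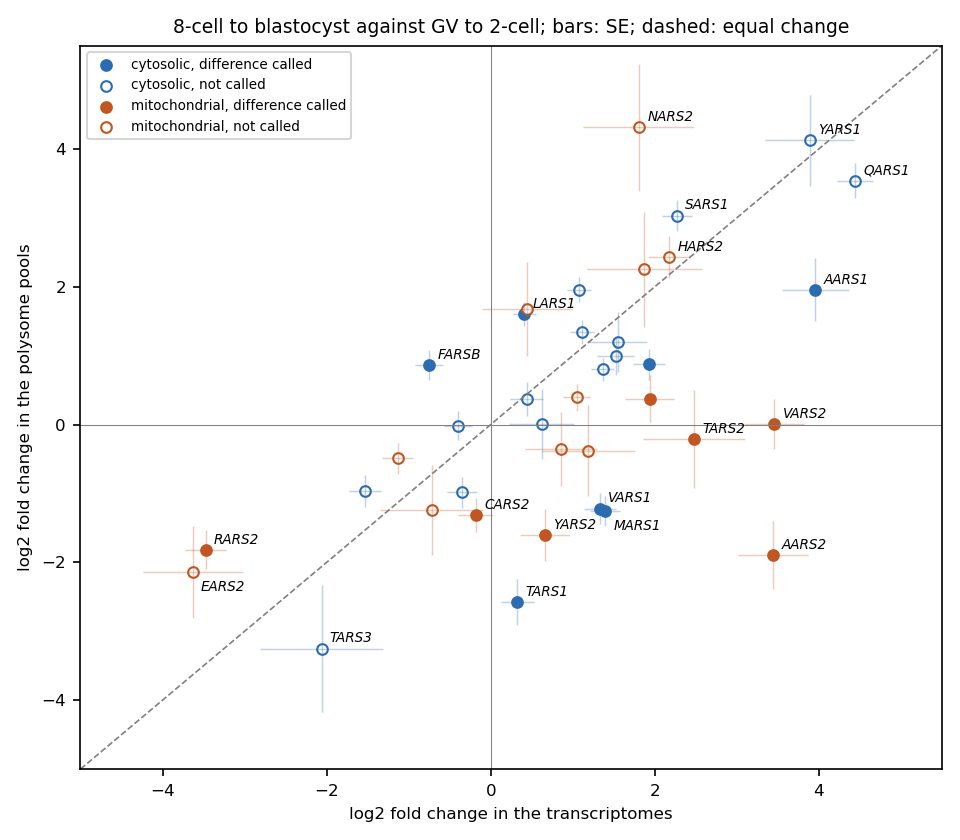
Log2 fold change of each synthetase from before (GV, MII and 2-cell) to after (8-cell, morula and blastocyst) genome activation in the transcriptomes (x axis) and in the polysome pools (y axis), with bars of 1 SE, cytosolic genes in blue and mitochondrial in orange, filled where the difference of the changes was called. YARS1 and HARS2 lie near the dashed line of equal change, and QARS1 lies below it with an open point. AARS2, VARS2, TARS2, MARS1 and VARS1 lie well below the line.

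The change in the pools differed from that in the transcriptomes, by the interaction term and by over 2-fold, for 14 members. In the pools 2 cytosolic genes lay above and 5 below their change in the transcriptomes, and 1 and 6 mitochondrial genes, at a background of 23.6%, 8.10% higher and 15.5% lower. MARS1 rose by 1.39 ± 0.18 in the transcriptomes and fell by 1.25 on the log2 scale in the pools, a difference of -2.64 ± 0.29 (adjusted p = 1.2e-06). VARS1 did likewise, at 1.33 ± 0.19 and -1.22 ± 0.23, a difference of -2.55 ± 0.30 (adjusted p = 2.9e-06). VARS2, which rose by 3.46 in the transcriptomes, was at 0.01 ± 0.35 in the pools, a difference of -3.45 ± 0.52 (adjusted p = 4.4e-05), with 9.87 to 52.0 CPM in the 6 earlier pools and 17.1 to 58.7 CPM in the 6 later ones. The members that moved upwards in the pools relative to the transcriptomes were FARSB (1.62 ± 0.28, adjusted p = 0.00016), LARS1 (1.19 ± 0.23, adjusted p = 0.00043) and RARS2 (1.66 ± 0.36, adjusted p = 0.0014). Without the 8-cell stage the difference for TARS1 went from -2.90 to 0.80 and was not called, and the cytosolic median went from -0.53 to 0.22.

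Enzymes for the same amino acid in the cytoplasm and in mitochondria were also set side by side, with no test. EPRS1 was paired with both EARS2 and PARS2, and FARS2 with both FARSA and FARSB, so the 18 pairs share members. Over 18 pairs the cytosolic gene changed more upwards at genome activation in 10 pairs in the transcriptomes and in 11 in the pools, with medians of 0.27 and 0.42 for the difference of the log2 fold changes. The widest pair in the pools was that for tyrosine, YARS1 at 4.12 and YARS2 at -1.60, and the widest the other way was that for asparagine, NARS1 at 0.80 and NARS2 at 4.31. The value of NARS2 includes 8-cell pools of 716 and 0 counts, which disagreed. The arginine genes moved the same way, RARS1 at -1.53 and RARS2 at -3.48 in the transcriptomes.

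Of the 12 partner genes, which scaffold the complex, or edit or modify charged tRNA, 11 were tested. In the pools against the transcriptomes 0 were higher and 2 lower at GV, 2 and 5 at MII, 2 and 3 at 2-cell, 3 and 5 at 8-cell, 2 and 3 in morulae and 3 and 1 in blastocysts. Their medians were -0.89, -1.09, 0.06, -1.17, -0.28 and 0.23. In these comparisons 38.6% to 57.7% of all genes were called, 19.4% to 30.4% higher and 17% to 30.3% lower. At genome activation 2 rose and 3 fell in the transcriptomes and 3 rose and 3 fell in the pools, where 61.9% and 60.4% of all genes were called. Of the 16 genes of the amino acid response, through which ATF4 raises synthetase transcription in starved cells, 15 were tested. In the transcriptomes 6 rose and 4 fell at genome activation, with a median of 0.09, and in the pools 4 rose and 3 fell, with a median of 0.07. Against the transcriptome of their stage 7 were higher in the pools and 2 lower at GV, 6 and 2 at MII, 7 and 1 at 2-cell, 6 and 6 at 8-cell, 10 and 0 in morulae and 6 and 1 in blastocysts. Of all genes 19.4% to 30.4% were higher there and 17% to 30.3% lower. The medians were 1.49, 0.80, 3.08, 1.57, 2.96 and 1.14.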

How the data were processed

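The authors captured and amplified mRNA with a Smart-seq v4 kit, sequenced 138 libraries and deposited 1 table of expected counts per gene, estimated by Salmon from Ensembl's gene models and not normalized. The labels name UMD3.1 and the methods another build, and the Salmon version is not given in the sources used here. Each of the columns was matched to its sample by the stage, fraction and letter in its name, with 0 left over. 11.7% of the values are not whole and were rounded.

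F8, F9 and F10 of a gradient were summed, and 12 pools and 18 transcriptomes in 12 groups were fitted in 1 model with edgeR 4.0.16 (R 4.3.3; filterByExpr, TMM, two-sided quasi-likelihood test, Benjamini-Hochberg adjustment over 14612 genes, called at an adjusted p under 0.05 and a fold above 2). SE is the log2 fold change divided by the root of the F statistic. All adjusted p-values of fold changes are from this test. Trends used Spearman's rho on log2(CPM + 1) with 100000 permutations, adjusted over genes with a mean of at least 1 CPM (Python 3.11.15, scipy 1.17.1). TMM factors of the fraction levels were set over all 138 libraries, so these are on another scale than the pools. DESeq2 1.42.0, RLE factors, the likelihood ratio test, no filter, no fold limit, a replicate block, other pools, leaving out each library and leaving out fraction libraries with fewer than 7500 genes detected were alternatives. On simulated data for GV polysomes against transcriptome (14334 genes), 78.8% of genes lowered by 3 on the log2 scale and 50.0% of those lowered by 2 were called, and 91.5% and 55.8% of those raised by 3 and 2. The changed genes were drawn only from those above a minimum CPM in GV transcriptomes. These shares therefore do not cover members of low level or the other stages, where pools can agree less.

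In each comparison statistics are given for up to 3 cytosolic and 3 mitochondrial genes in each direction with the largest change among those called, and members were otherwise named for their levels, counts or role. Of the 38 members 2 enter the counts, means and medians but are not reported singly here. The members and lists were chosen with earlier results of these data known. The sources call the gradients and transcriptomes biological replicates of the same batches but do not say that libraries of a letter belong together. The p-values of fold changes rest on a spread between replicate libraries that was estimated per gene over all groups, pools and transcriptomes together. They do not measure the spread between the pools of a single stage. Where the pools of a stage agreed less than other groups, its SE and p-values can be too small. The p-values of trends do not measure the spread between gradients. Correlations of deviations from the group means between pools and transcriptomes of 1 letter were near 0, and samples were not treated as paired. Intervals cover counting error only, and a count of 0 allows up to 3 counts. Comparisons of 1 stage share its libraries. Sequences and transcript lengths were not used here, so the levels of different genes and their shares of a sum are not corrected for length. A larger share of CPM need not mean more molecules. The symbols of all 38 genes were found in a RefSeq table of another assembly.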

Additional observations from a re-analysis of the deposited data

Results flagged for a closer look

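For 14 synthetases the change across genome activation in the polysome pools differed from that in the transcriptomes by the interaction term of the edgeR model and by over 2-fold, given as polysome change minus transcriptome change on the log2 scale. The difference was below 0 for AARS2 (-5.33), VARS2 (-3.45), TARS1 (-2.90), TARS2 (-2.69), MARS1 (-2.64), VARS1 (-2.55), YARS2 (-2.26), AARS1 (-2.01), SARS2 (-1.56), CARS2 (-1.13) and FARSA (-1.05). It was above 0 for RARS2 (1.66), FARSB (1.62) and LARS1 (1.19). The median over all genes was -0.35, and 23.6% of all genes were called, 8.10% above 0 and 15.5% below. The values for AARS2 and TARS1 rest on 8-cell pools with 0 or 1 count, and that of TARS2 on 8-cell pools of 0 and 5277 counts. The 8-cell pools of AARS1 also disagreed, as given above.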

How the results depend on the processing

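Of 269 calls of a synthetase reported singly in the edgeR comparisons, 180 stayed past the threshold under all alternatives run. The number kept was 268 with the likelihood ratio test, 256 with RLE factors, 260 without the filter, 257 with the replicate block, 227 with F9 and F10 only, 266 with fractions scaled to the same total and 259 with DESeq2. The replicate block left the count of members called at 19 instead of 20 for GV polysomes against transcriptome and 1 instead of 4 for the polysome step from morula to blastocyst, and changed no other count by over 1.5 times. That polysome step gave 2 with RLE factors and 2 without the filter. The transcriptome step from MII to 2-cell gave 11 with DESeq2 (7 without), that from 8-cell to morula 5 without the fold limit and 4 without the filter (2 otherwise), and that from morula to blastocyst 9 with F9 and F10 only (15 otherwise). The polysome step from GV to MII gave 8 with DESeq2.

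Leaving out 1 library at a time, the polysome steps gave 2 to 3 calls from GV to MII, 14 to 27 from 2-cell to 8-cell, 10 to 17 from 8-cell to morula and 1 to 5 from morula to blastocyst. With 1 gradient, trends numbered 7 to 9 at GV, 0 to 3 at MII, 0 to 5 at 2-cell and 0 at 8-cell and in blastocysts. The log2 fold change ranged from -1.35 to 3.12 for CARS1 (8-cell polysomes against transcriptome), from -0.12 to 1.61 for GARS1 (the same in morulae), from -9.42 to 5.14 for TARS3 (polysomes, 8-cell to morula) and from -0.85 to 4.33 for LARS2 (polysomes at genome activation). The cause was not tested. Without the fraction libraries that detected fewer than 7500 genes, also chosen after seeing the data, 263 single calls were kept, the polysome step from morula to blastocyst gave 2 and GARS1 in morulae was at -0.028. With morula and blastocyst only as the later stages, likewise chosen, the polysome change was 1.40 for TARS1 and 1.36 for AARS2, and the difference of changes 0.80 for TARS1. RLE scaling shifted the median of all genes by -0.24 for 8-cell polysomes against transcriptome.

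Stages have only 2 gradients, and the model assumed a common spread per gene for all groups. Where the remaining pool stood alone it was likewise assumed to vary like the other groups. Members with few counts in the transcriptomes, such as AARS2, VARS2, EARS2 and PARS2, can have wide errors, as PARS2 did at 2-cell in the pools against the transcriptomes. Across genome activation in the transcriptomes, the errors of VARS2 and AARS2 were close to that of AARS1.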

Other observations

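SARS1 stood out in 1 fraction library. F1 of blastocyst gradient B read 5981 CPM for SARS1, where F1 of gradient A read 135 CPM and the other fractions of gradient B 69.9 to 188 CPM. F1 enters no trend and no pool.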
